A study of Homo sapiens with 18 samples.

Results

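MARK1, CD1D, GFRA1, B3GAT1, KIAA1549L, BARX2 and BSX are 7 genes at which a site called higher for H3K4me3 overlapped a site called lower for H3K27me3 in V16D/H19 cells. They were selected on the authors' mean concentrations at such sites, so every value of that contrast at these genes is given as a description without a test. The deposited lists of differential sites held 79 overlapping pairs of an H3K4me3 and an H3K27me3 site. In 64 of the 79 pairs (81.0%) H3K4me3 was higher and H3K27me3 lower in V16D/H19, in 12 pairs both marks were lower, and in 3 pairs H3K4me3 was lower and H3K27me3 higher. The pairs of the first kind that carried the same gene name in both lists belonged to 52 genes, out of 2312 genes with a site in either list. The 7 genes lie on chromosomes 1, 10 and 11, where 8 of the 52 genes are found. The eighth, PLXNA2, a plexin receptor for semaphorins, was not among those chosen, and the other 44 genes lie elsewhere, so the chromosomes that the 7 genes share are not a result.

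V16D is a castration-resistant prostate cancer cell line derived from LNCaP cells, grown in RPMI1640 with 10% fetal bovine serum. The cells were transduced in biological triplicate with a control lentivector (V16D/CTL) or with a lentivector that overexpresses the long noncoding RNA H19 (V16D/H19), and each replicate gave an H3K4me3, an H3K27me3 and an input library. Chromatin immunoprecipitation followed by sequencing was compared between the groups, which asked how H19 overexpression alters these marks. All the groups are 1 cell line carrying a vector, and the human H19 overexpression vector named in the study's methods carries a CMV promoter.

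H3K4me3 is laid down at the starts of active and poised genes by the SET1 and MLL methyltransferases. H3K27me3 is written by Polycomb repressive complex PRC2 and marks silenced developmental genes. Promoters that carry both marks are called bivalent, and are typical of genes of other lineages that are held silent but inducible. The 7 genes have separate functions: GFRA1 is the GPI-anchored co-receptor through which GDNF signals to the kinase RET, CD1D presents lipid antigens to natural killer T cells, B3GAT1 adds the glucuronic acid of the HNK-1 (CD57) epitope, MARK1 is a kinase that phosphorylates microtubule-associated proteins, BARX2 and BSX are homeobox transcription factors, and KIAA1549L encodes a membrane protein that has been little studied.

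The libraries carried the profile of luminal prostate cells. All 7 luminal markers examined (KLK2, KLK3, TMPRSS2, FOLH1, HOXB13, KRT8, KRT18) had an H3K4me3 peak within 1 kb of the gene start in all 6 libraries, with summed folds over input of 223.9 to 261.2 in V16D/CTL and 256.1 to 319.1 in V16D/H19. KRT8 and KRT18, which share a peak, were counted once in the sums, and KLK2 had lower values in V16D/H19 replicate 3 (5.62) than in any control (9.28 to 17.34). None of the 4 markers of blood or endothelium (PTPRC, CD3E, PECAM1, CDH5) had a peak there in any library. H3K4me3 lists held 20048 to 21934 peaks over 28.8 to 31.4 Mb, and H3K27me3 lists 55060 to 72289 peaks, which covered 45.1, 58.8 and 62.2 Mb in V16D/CTL and 42.3, 47.5 and 48.4 Mb in V16D/H19. The read depth of the libraries was not used here. Within 1 kb of the outermost annotated start of the H19 gene itself, no library had a peak of either mark. Other starts of H19 were not examined, and the level of the H19 RNA is not measured by these files.

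The starts of these genes differ in base composition. RefSeq promoter windows (GRCh38.p14, from 250 bases before to 50 bases after an annotated start) matched 4 of the 7 genes, with 8 windows in all. The following 6 are shown because they set starts with and without H3K4me3 side by side, with every CG dinucleotide, the substrate of DNA methylation, in capitals.
CD1D start 1: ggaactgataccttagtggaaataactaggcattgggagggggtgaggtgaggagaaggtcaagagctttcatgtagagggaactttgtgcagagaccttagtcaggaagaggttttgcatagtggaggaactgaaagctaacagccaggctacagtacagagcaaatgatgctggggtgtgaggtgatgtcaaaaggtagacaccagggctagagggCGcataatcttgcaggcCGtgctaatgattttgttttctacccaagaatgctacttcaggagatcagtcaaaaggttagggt
CD1D start 2: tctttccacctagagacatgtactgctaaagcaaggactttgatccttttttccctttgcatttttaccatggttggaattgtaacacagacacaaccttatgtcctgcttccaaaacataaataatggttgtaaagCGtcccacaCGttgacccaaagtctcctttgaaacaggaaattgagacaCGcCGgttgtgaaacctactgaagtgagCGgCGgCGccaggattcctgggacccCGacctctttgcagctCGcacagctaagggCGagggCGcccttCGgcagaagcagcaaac
GFRA1 start 1: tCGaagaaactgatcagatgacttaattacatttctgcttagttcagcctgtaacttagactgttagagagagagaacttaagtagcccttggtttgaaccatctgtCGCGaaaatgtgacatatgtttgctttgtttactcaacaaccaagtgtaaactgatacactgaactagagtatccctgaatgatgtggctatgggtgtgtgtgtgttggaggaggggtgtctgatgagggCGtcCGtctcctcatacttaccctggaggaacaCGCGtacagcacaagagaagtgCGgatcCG
GFRA1 start 2: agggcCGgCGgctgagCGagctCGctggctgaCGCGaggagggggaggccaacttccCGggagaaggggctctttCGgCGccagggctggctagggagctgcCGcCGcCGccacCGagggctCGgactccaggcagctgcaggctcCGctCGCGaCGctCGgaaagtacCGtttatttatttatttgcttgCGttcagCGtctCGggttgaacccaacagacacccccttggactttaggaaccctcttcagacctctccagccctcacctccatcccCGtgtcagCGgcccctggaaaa
B3GAT1 start: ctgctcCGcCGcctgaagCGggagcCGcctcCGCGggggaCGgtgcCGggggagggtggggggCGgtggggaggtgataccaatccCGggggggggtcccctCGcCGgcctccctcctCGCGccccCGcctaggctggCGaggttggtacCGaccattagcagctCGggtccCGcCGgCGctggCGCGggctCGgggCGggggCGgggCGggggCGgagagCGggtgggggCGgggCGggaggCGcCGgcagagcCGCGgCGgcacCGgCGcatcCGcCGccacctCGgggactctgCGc
BSX start: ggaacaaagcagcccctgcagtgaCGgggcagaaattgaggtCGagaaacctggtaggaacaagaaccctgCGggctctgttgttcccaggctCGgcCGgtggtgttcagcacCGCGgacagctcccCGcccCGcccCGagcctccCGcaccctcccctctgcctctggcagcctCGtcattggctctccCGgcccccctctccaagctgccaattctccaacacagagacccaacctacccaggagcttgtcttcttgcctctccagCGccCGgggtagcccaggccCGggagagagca
The windows of CD1D lie at chr1:158179697-158179996 and chr1:158180645-158180944 on the plus strand. Those of GFRA1 lie at chr10:116274656-116274955 and chr10:116272426-116272725, that of B3GAT1 at chr11:134412193-134412492 and that of BSX at chr11:122981785-122982084, all on the minus strand. Over all 35116 promoter windows of 27305 genes the median was 14 CG dinucleotides and 58.7% G+C, and 96.0% held at least 1 CG.

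Among the starts with a window in CD1D and GFRA1, H3K4me3 lay over those with more CG. CD1D has a further, outermost start without a window, whose CG was not counted and which had a nearby H3K4me3 peak in 2 of 3 V16D/CTL and 3 of 3 V16D/H19 libraries. The first CD1D window held 2 CG, where 11.0% of promoters held fewer, and no H3K4me3 peak overlapped it in any library. The second held 12 CG, and its start was covered by H3K4me3 in 1 of 3 V16D/CTL and 3 of 3 V16D/H19 libraries. GFRA1 start 1 held 9 CG, and no H3K4me3 peak overlapped its window. Peaks did lie within 1 kb of that start in 2 of 3 V16D/CTL and 3 of 3 V16D/H19 libraries. GFRA1 start 2, with 25 CG, was covered in 2 of 3 V16D/CTL and 3 of 3 V16D/H19 libraries. A further GFRA1 start 250 bases downstream (chr10:116272176-116272475, 23 CG) was covered in 0 of 3 V16D/CTL and 2 of 3 V16D/H19 libraries, and the most internal one (chr10:116255746-116256045, 4 CG) in none. The B3GAT1 window was the richest, with 42 CG and 81.0% G+C, more CG than 94.2% of all promoters, and it was covered by H3K4me3 in all 6 libraries. The BSX window held 16 CG and no H3K4me3 peak in any library.

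H3K27me3 covered most of the same starts. It overlay both CD1D starts shown and the first 3 GFRA1 starts in all 6 libraries. At the B3GAT1 start it was present in 2 of 3 V16D/CTL and 0 of 3 V16D/H19 libraries, and at the BSX start in 2 of 3 and 1 of 3. Of the letter strings searched on both strands, GGGCGG (the GC box core, which contains a CG, in 45.0% of all promoters) occurred 7 times in the B3GAT1 window, 2 times in the BSX window and 1 time in the third GFRA1 window. CANNTG (the E-box, in 68.7%) occurred 4 times at GFRA1 start 1, 1 time each at the other GFRA1 starts and at CD1D start 1, and in no other window. ACAAAG (16.1%) was found in CD1D start 1, GFRA1 start 1 and the BSX window, CAGCACC (7.75%) in the BSX window only, and AGAACA (14.8%) in none of the 8.

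The concentrations by which the genes were chosen are the authors' group means, in log2 normalized reads over a site. GFRA1 (chr10:116056925-116274705, minus strand) had a 2533-base H3K4me3 site over its promoter, whose concentration was 5.91 in V16D/CTL and 6.55 in V16D/H19. This site lay wholly within a 20408-base H3K27me3 site, at 8.47 and 8.15. At CD1D (chr1:158178030-158186427, plus strand) the H3K4me3 concentration was 4.39 and 5.71, the lowest control level and the widest difference of the 7, within a 16298-base H3K27me3 site at 8.26 and 7.83. B3GAT1 (chr11:134378504-134412242, minus strand) had 6.6 and 7.57 for H3K4me3 and 7.39 and 6.82 for H3K27me3.

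MARK1 (chr1:220528136-220664461, plus strand) stood at the other end of the set. Its H3K4me3 concentration was the highest, 8.74 and 9.11, with the smallest difference, and its H3K27me3 concentration the lowest, 5.93 and 4.5, with the widest difference. BARX2 (chr11:129375233-129452279, plus strand) had 6.31 and 7.01 for H3K4me3 and 7.25 and 6.69 for H3K27me3. A second listed H3K27me3 site, at -6718 bases from the BARX2 start and annotated as distal intergenic, had 6.49 and 5.53. The other homeobox gene, BSX (chr11:122977570-122981834, minus strand), had 5.63 and 6.36 for H3K4me3 and 8.98 and 8.67 for H3K27me3, and KIAA1549L (chr11:33376108-33674102, plus strand) had 5.76 and 6.67 and then 6.96 and 6.45.

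Over the 7 genes the difference in H3K4me3 concentration, V16D/H19 minus V16D/CTL, ran from 0.37 (MARK1) to 1.32 (CD1D) with a median of 0.73 on the log2 scale. The difference in H3K27me3 concentration ran from -1.43 (MARK1) to -0.31 (BSX) with a median of -0.51. The other 57 pairs of the same kind had medians of 0.79 and -0.66, with ranges of 0.26 to 3.12 (H3K4me3) and of -1.61 to -0.33 (H3K27me3). The 7 genes lay within both ranges except BSX (-0.31) and GFRA1 (-0.32), whose H3K27me3 differences were nearer to 0. Per kb of site, the H3K4me3 concentration in V16D/CTL was highest at MARK1 (7.26), followed by B3GAT1 (5.91), BSX (5.5), KIAA1549L (5.03), GFRA1 (4.57), CD1D (4.51) and BARX2 (4.35). Per kb, the H3K27me3 concentration in V16D/CTL lay between 4.08 (B3GAT1) and 4.89 (BSX). The deposited means carry no replicate error, so these orders have no spread to be read against.

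**Figure D1:**
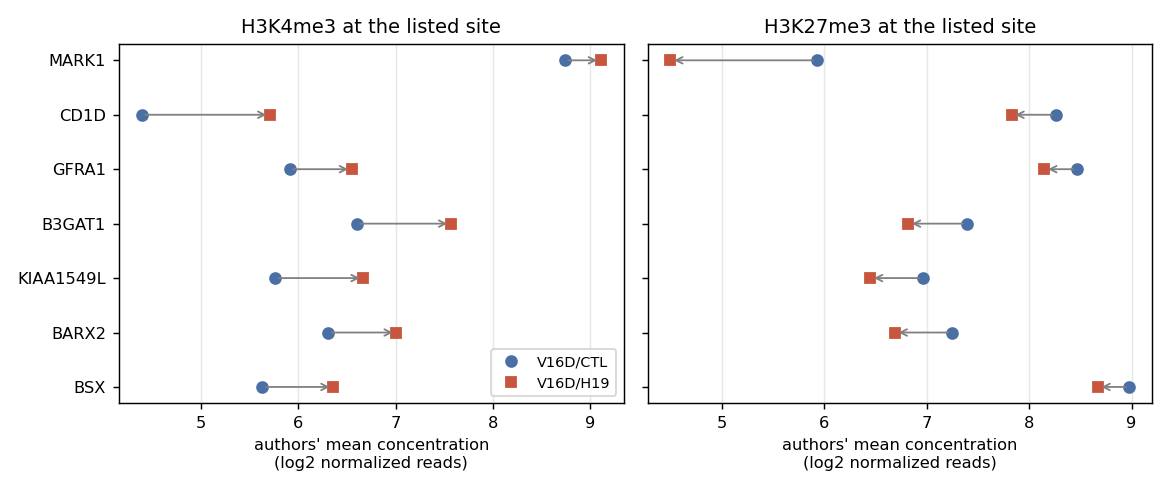
The authors' mean concentration (log2 normalized reads, horizontal axis) at the listed site of each gene for H3K4me3 (left) and H3K27me3 (right), with circles for V16D/CTL, squares for V16D/H19 and arrows from control to H19. All 7 arrows point to the right (higher in V16D/H19) for H3K4me3, by 0.37 to 1.32, and to the left for H3K27me3, which is the property the genes were chosen for.

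**Figure D2:**
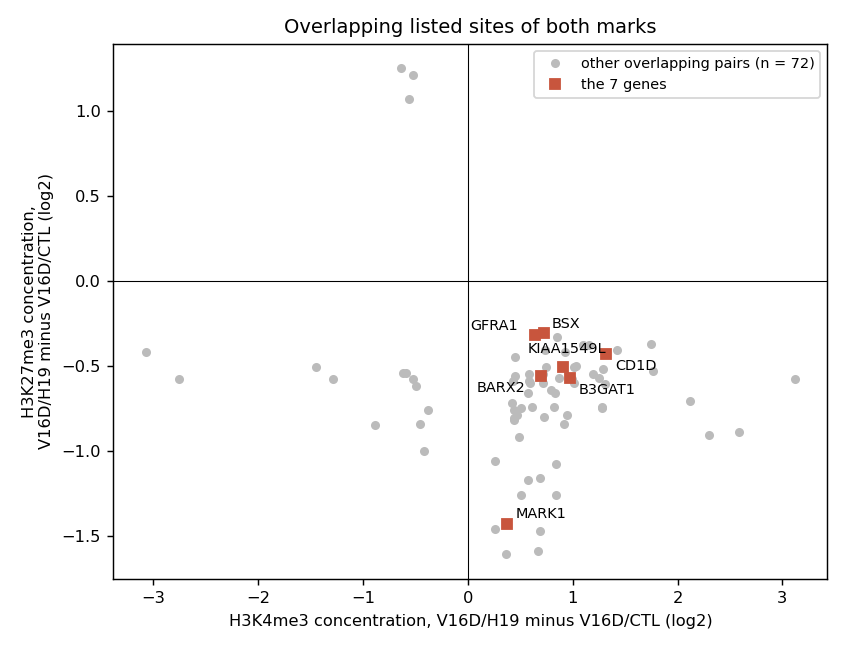
The difference in concentration (V16D/H19 minus V16D/CTL, log2) of H3K4me3 (horizontal axis) and H3K27me3 (vertical axis) for the 79 overlapping pairs of listed sites, 1 point per pair, with the 7 genes as squares. The lower right quadrant holds 64 pairs, and MARK1 lies lowest and furthest left among the 7.

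The peak lists of the single libraries were then read at the same sites. They give, for each library, the highest fold over input of its peaks at the site, and the length that its peaks cover. For H3K4me3 the highest fold separated the groups at 1 of the 7 genes, CD1D. Over all 20708 H3K4me3 sites found in at least 2 libraries, 6.95% had a higher fold in all 3 V16D/H19 than in all 3 V16D/CTL libraries. The cells are a bulk population, so a mark on more cells and more of the mark per cell cannot be told apart, nor can 2 marks on the same allele be told from marks in different cells.

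CD1D had no H3K4me3 peak at its site in V16D/CTL replicate 1 and folds of 7.38 and 6.39 in replicates 2 and 3, against 13.05, 14.21 and 8.73 in V16D/H19. Every V16D/H19 library thus lay above every control library, counting the library without a peak as lowest. The log2 difference between the group means was 0.8, with V16D/CTL replicate 1 left out of the control mean. A separate H3K4me3 peak within 1 kb of the outermost CD1D start, outside the listed site, had folds of 10.32 and 7.84 in control replicates 1 and 3, none in replicate 2, and 11.68, 11.05 and 11.71 in V16D/H19.

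GFRA1 had folds of 8.83, 10.23 and 4.89 in V16D/CTL against 12.86, 7.31 and 5.8 in V16D/H19, with overlapping ranges. B3GAT1 had 15.34, 20.22 and 20.51 in V16D/CTL against 35.46, 36.79 and 17 in V16D/H19, means of 18.7 ± 2.9 and 29.8 ± 11.1 (SD, n = 3). V16D/H19 replicates 1 and 2 were above all controls at B3GAT1 and replicate 3 was within their range. Leaving out that library separated the groups at B3GAT1 as well, which made 2 of the 7 genes. Such a count can only stay or rise when a library is left out.

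At MARK1 the folds were 54.48, 32.45 and 47.89 in V16D/CTL against 29.89, 49.06 and 48.39 in V16D/H19. Its mean was thus lower in V16D/H19 (42.4 ± 10.9) than in V16D/CTL (44.9 ± 11.3, SD, n = 3), opposite in sign to its difference in concentration and well within the spread. BARX2 had 12.98, 14.35 and 25.79 against 31.86, 18.39 and 24.37, where only control replicate 3 reached the V16D/H19 range. Without that library BARX2 was the second gene with separated groups. BSX had 14.06, 7.43 and 18.09 against 15.95, 15.85 and 13.91, and KIAA1549L 16.55, 5.57 and 11.49 against 11.44, 10.96 and 15.6. At both genes the V16D/H19 folds lay within the range of the controls. The median log2 difference in fold over the 7 genes was 0.21, beside a median of 0.03 over the 15811 sites with a peak in all 6 libraries. It was 0.5 without V16D/CTL replicate 3 and 0.34 without V16D/CTL replicate 2 or without V16D/H19 replicate 3.

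For H3K27me3, in which folds were much lower throughout, the groups were apart at 3 of the 7 genes, GFRA1, B3GAT1 and MARK1. Over all 58789 H3K27me3 sites found in at least 2 libraries, 6.06% had a lower fold in all 3 V16D/H19 than in all 3 V16D/CTL libraries. At GFRA1 the folds were 5.03, 5.84 and 5.8 in V16D/CTL against 4.81, 4.25 and 4.19 in V16D/H19. At B3GAT1 they were 4.91, 5.07 and 5.01 against 4.12, 4.01 and 4.0, means of 5.0 ± 0.0798 and 4.04 ± 0.0697 (SD, n = 3). MARK1 had 3.69, 3.87 and 5.25 against 3.53 and 3.52, with no peak at the site in V16D/H19 replicate 2.

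The other 4 genes overlapped between groups in at least 1 library. CD1D had 4.55, 4.89 and 6.15 in V16D/CTL against 4.69, 4.78 and 4.38 in V16D/H19. KIAA1549L had 5.21, 4.17 and 4.79 against 3.92, 5.04 and 3.82, where V16D/H19 replicate 2 stood above 2 of the controls. BARX2 had 4.96, 4.04 and 4.22 against 3.64, 4.32 and 3.98, and BSX 5.45, 6.26 and 6.65 against 4.71, 5.51 and 5.06. Without V16D/H19 replicate 2 the groups were apart at 6 of the 7 genes, and without V16D/CTL replicate 1 at 5. Leaving out a library can only keep or raise such a count, and the share over all sites was not recomputed for it. The median log2 difference over the 7 genes was -0.26, beside -0.05 over the 10934 H3K27me3 sites with a peak in all 6 libraries.

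In level, the 7 sites ranked low among H3K4me3 sites and high among H3K27me3 sites. Their mean H3K4me3 fold in V16D/CTL exceeded that of 21.4% (CD1D) to 67.5% (MARK1) of all sites found in at least 2 libraries, and 6 of the 7 lay below the middle. Their mean H3K27me3 fold exceeded that of 94.1% (MARK1) to 99.9% (BSX) of sites. Each gene's value was the highest over all merged regions touching its listed site, whereas every other value came from a single merged region. The genes were also chosen for having listed H3K27me3 sites, so these ranks are in part set by how they were taken. By H3K4me3 fold in V16D/CTL the order was MARK1 (44.9), B3GAT1 (18.7), BARX2 (17.7), BSX (13.2), KIAA1549L (11.2), GFRA1 (7.98) and CD1D (6.88), in which MARK1 alone was separated from its neighbour by the ranges of the libraries. In V16D/H19 the first 5 kept this order (42.4, 29.8, 24.9, 15.2 and 12.7), followed by CD1D (12) and GFRA1 (8.65), and there the gap between BARX2 and BSX was the only one wider than the ranges. By H3K27me3 fold BSX stood first in both groups (6.12 and 5.09) and MARK1 last (4.27 and 3.53). No neighbours in V16D/CTL were apart by their ranges, and in V16D/H19 only BARX2 and MARK1.

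**Figure D3:**
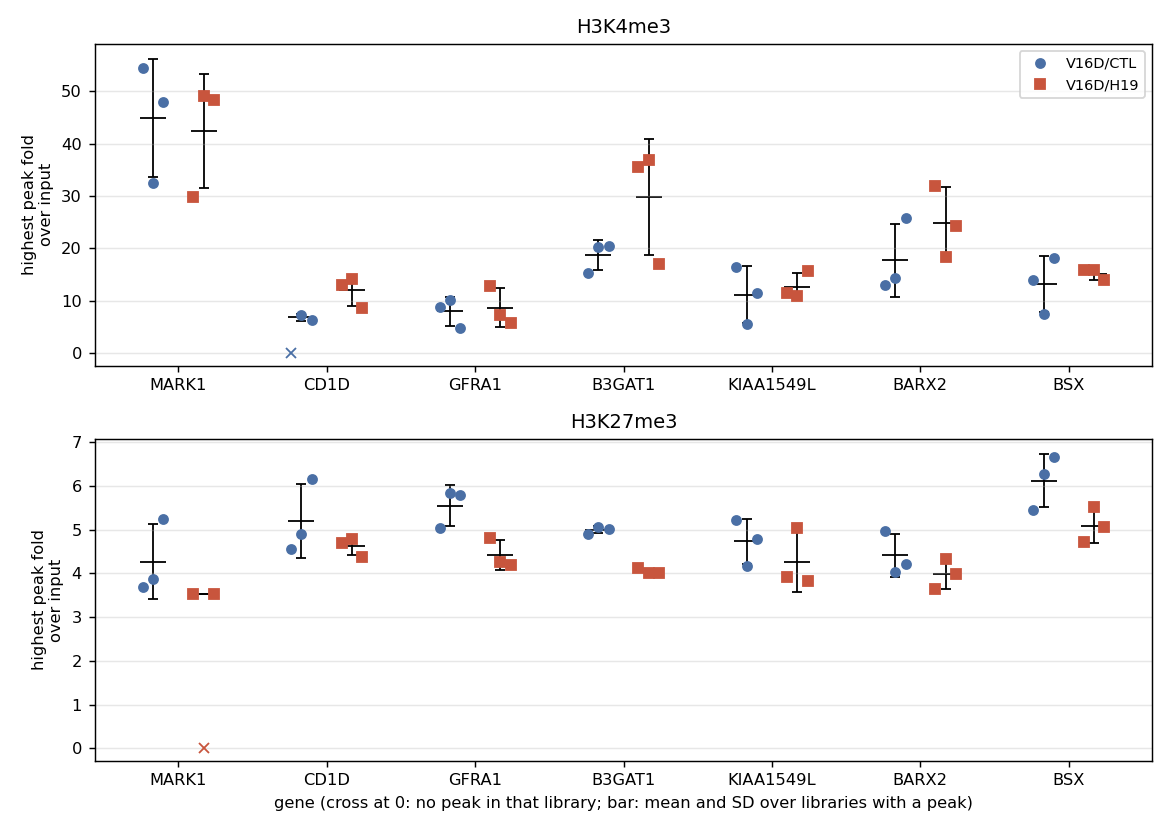
The highest peak fold over input at the listed site of each gene, in each of 3 V16D/CTL (circles) and 3 V16D/H19 libraries (squares), for H3K4me3 (top) and H3K27me3 (bottom). Black bars give the mean and SD over libraries with a peak, and a cross marks a library without one. CD1D is the only gene whose groups are apart for H3K4me3, and GFRA1, B3GAT1 and MARK1 are apart for H3K27me3.

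The length covered by H3K4me3 peaks separated the groups at more of the genes than the fold did. From 10 kb upstream to the gene end, the H3K4me3 peaks were longer in all 3 V16D/H19 than in all 3 V16D/CTL libraries at 6 of the 7 genes. Among 14087 protein-coding genes with an H3K4me3 peak in this window in at least 2 libraries, 5.96% showed the same. From 2 kb upstream, which leaves out the BSX site, the count was 5 of the 7. A wider peak holds more reads, so length is not independent of the concentrations that chose the genes.

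At MARK1 the H3K4me3 peak covered 1716, 1624 and 1515 bases in V16D/CTL against 1991, 1791 and 1787 in V16D/H19, although its fold was no higher. The difference lay on the side of the gene body. The peak ended 1123, 1092 and 1002 bases downstream of the start in V16D/CTL, compared with 1437, 1222 and 1207 in V16D/H19, while its upstream edge overlapped between groups (-592, -531 and -512 against -553, -568 and -579). H3K27me3 in the MARK1 window covered 2829, 2991 and 3620 bases in V16D/CTL against 656, 1450 and 468 in V16D/H19, a ratio of means of 0.273, the lowest of the set. Both marks overlay 1079, 629 and 1024 bases in the V16D/CTL replicates, and 574, 0 and 275 bases under V16D/H19.

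B3GAT1 had a similar arrangement. Its H3K4me3 peak covered 1475, 1190 and 1247 bases in V16D/CTL against 1542, 1609 and 1559 in V16D/H19, and its gene-body edge lay at 697, 544 and 591 bases against 768, 830 and 783. H3K27me3 covered 5377, 5717 and 6139 bases against 4163, 4911 and 4364. The overlap of the marks was 1475, 855 and 1247 bases in V16D/CTL against 628, 199 and 670 in V16D/H19. As at MARK1, H3K4me3 was longer while the stretch under both marks was shorter in every V16D/H19 library, with H3K27me3 peaks on either side of the CG-rich start shown above. The share of all genes with such a difference in overlap was not computed, for these or the genes below.

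CD1D was one of 4 genes, with GFRA1, BARX2 and BSX, whose mean overlap of the marks was longer in V16D/H19. H3K4me3 in its window covered 364, 506 and 836 bases in V16D/CTL against 1715, 1297 and 1145 in V16D/H19, the highest ratio of means at 2.44. H3K27me3 covered 7812, 8640 and 10361 bases against 6699, 5817 and 6550. Both marks overlay 0, 506 and 474 bases in V16D/CTL against 827, 614 and 852 in V16D/H19, with the H3K4me3 peak at the second start lying under H3K27me3. No H3K27me3 peak covered the outermost start in any library. The next H3K27me3 peak downstream of it began at 403, 969 and 765 bases in V16D/CTL, compared with 1147, 1139 and 1714 bases in V16D/H19.

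At the homeobox gene BARX2, H3K4me3 covered 610, 762 and 1012 bases in V16D/CTL against 1233, 1168 and 1109 in V16D/H19, beginning within 125 bases downstream of the start in every library. H3K27me3 covered 9237, 10123 and 11682 bases against 7942, 6018 and 5112. The groups did not overlap in either mark. With a window from 2 kb upstream, which leaves out the distal H3K27me3 site, the mean H3K27me3 difference at BARX2 was -819 bases in place of -3990, and the groups overlapped. The marks overlay 122, 156 and 486 bases against 570, 457 and 201, without a separation of the groups. The H3K4me3 site of BSX lay upstream of its start, whereas those of CD1D and GFRA1 lay downstream of their outermost starts. The BSX peak lay between -3142 and -2277 bases from the start in all 6 libraries, overlapped by H3K27me3, and the BSX start itself was bare of H3K4me3. H3K4me3 in the BSX window covered 712, 684 and 612 bases against 782, 1039 and 760, where 198 of the 1039 bases came from a peak at the gene end found in V16D/H19 replicate 2. All of this H3K4me3 lay under H3K27me3, so the stretch under both marks had these same lengths and is not a further result. H3K27me3 at BSX covered 11099, 10536 and 9422 bases against 9528, 10663 and 8276, with overlapping ranges.

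KIAA1549L and GFRA1 are the longest genes of the set, and H3K27me3 extended over their bodies in many peaks. In KIAA1549L, H3K4me3 covered 787, 689 and 910 bases in V16D/CTL against 1210, 1184 and 947 in V16D/H19, and H3K27me3 32781, 39979 and 46085 against 30898, 29742 and 27487. Most of this H3K27me3 lay outside the listed promoter site, with 29725, 35986 and 42051 bases in V16D/CTL against 28325, 26378 and 25126 in V16D/H19. In GFRA1, H3K4me3 covered 1043, 1560 and 1151 bases against 1681, 1773 and 1555, so that V16D/H19 replicate 3 fell just short of control replicate 2. The marks overlay 1043, 1560 and 1151 bases against 1681, 1352 and 1555 in GFRA1, and 787, 689 and 910 against 367, 767 and 947 in KIAA1549L, with overlapping ranges at both. H3K27me3 in GFRA1 covered 59304, 75304 and 74417 bases against 56651, 64863 and 64338, in which control replicate 1 was below 2 of the V16D/H19 libraries.

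H3K27me3 length was thus smaller in all 3 V16D/H19 libraries at 5 of the 7 genes, or at 4 with the window from 2 kb upstream. Among 5051 protein-coding genes with an H3K27me3 peak in the window in at least 2 libraries, 19.7% showed the same, and the H3K27me3 lists as a whole covered 45.1 to 62.2 Mb in V16D/CTL and 42.3 to 48.4 Mb in V16D/H19. The part of that difference in the values of the 7 genes was not tested. Peaks of both marks overlapped at all 7 genes in 2 of the 3 V16D/CTL and 2 of the 3 V16D/H19 libraries. The exceptions were CD1D in V16D/CTL replicate 1, which lacked H3K4me3 at the second start, and MARK1 in V16D/H19 replicate 2, whose 3 H3K27me3 peaks in the window (1450 bases) all lay outside the H3K4me3 peak. Because the genes were chosen for overlapping listed sites of both marks, such overlap is largely set by the choice. The share of all genes with overlapping peaks was not computed.

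**Figure D4:**
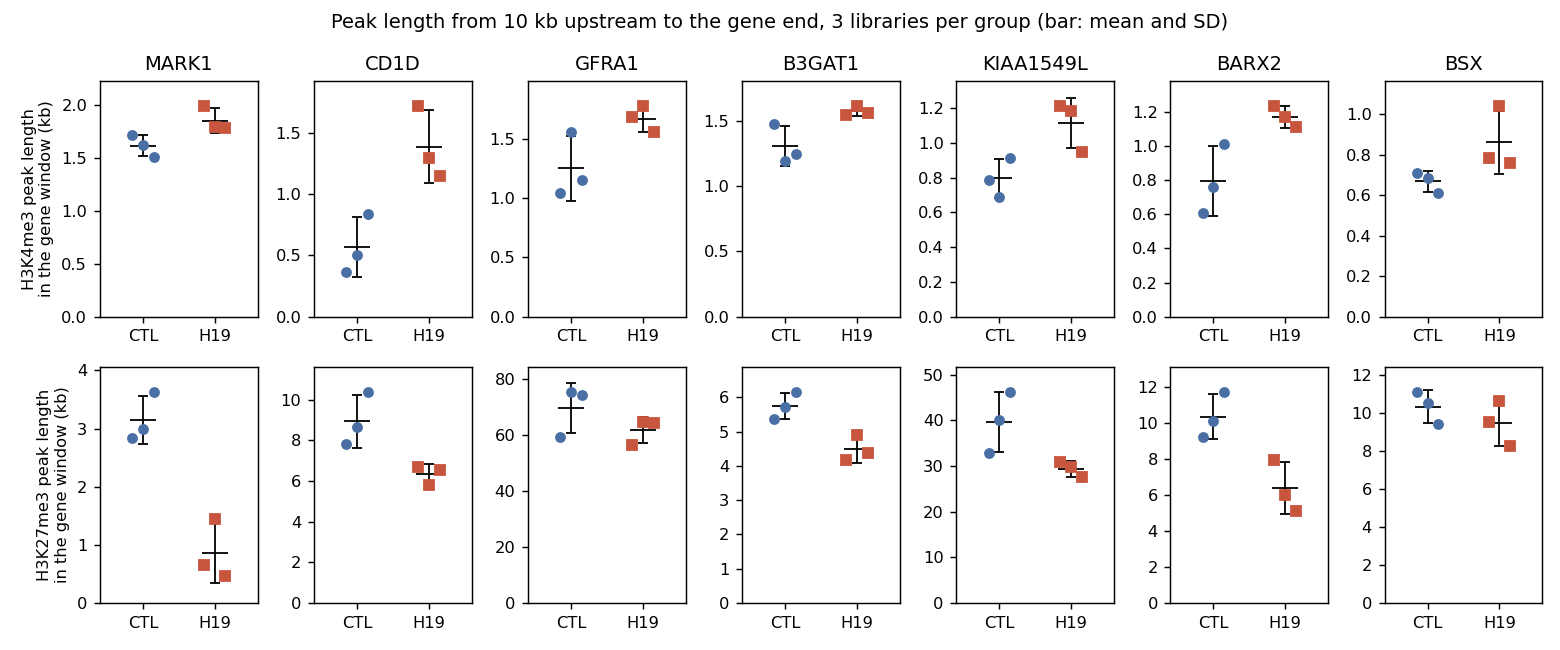
Length covered by peaks (kb, vertical axes from 0) from 10 kb upstream to the end of each gene, for H3K4me3 (top row) and H3K27me3 (bottom row), with 1 point per library and bars for mean and SD. H3K4me3 groups are apart at every gene but GFRA1, and H3K27me3 groups at every gene but GFRA1 and BSX.

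**Figure D5:**
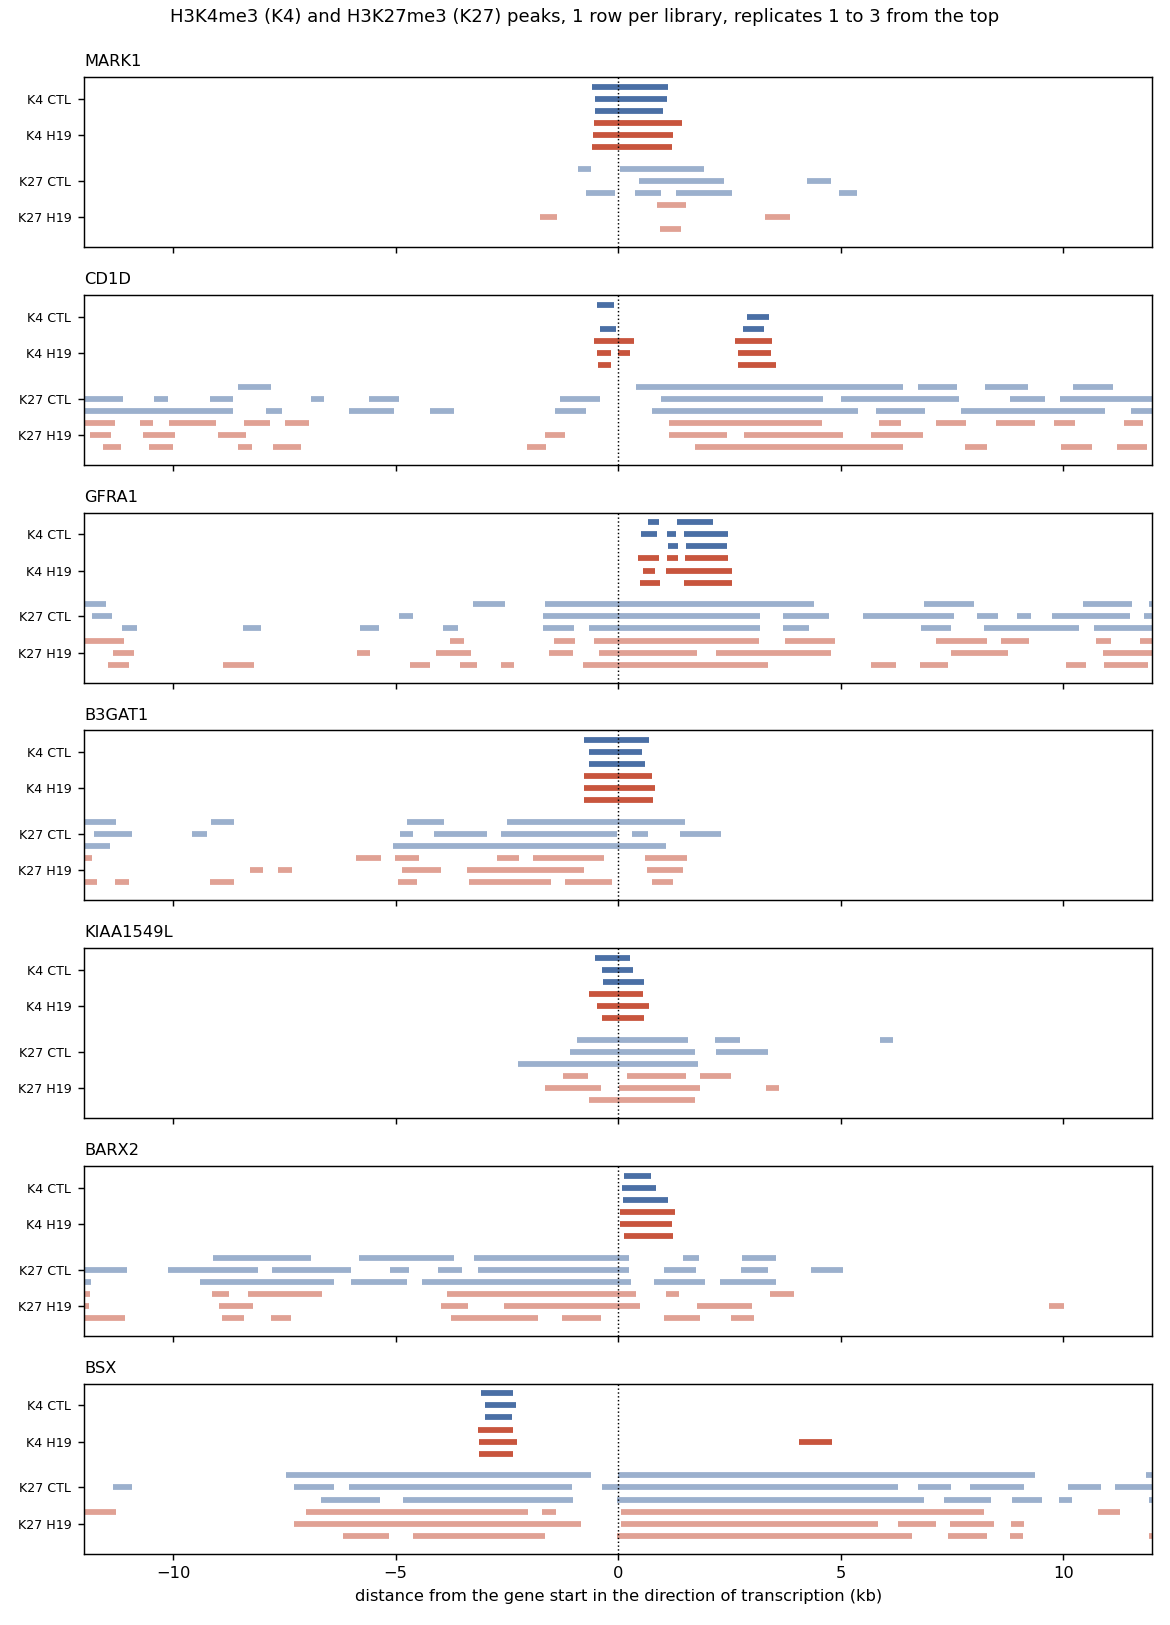
Peaks of H3K4me3 (dark, upper rows) and H3K27me3 (pale, lower rows) around the start of each gene in every library, V16D/CTL in blue and V16D/H19 in red, by distance from the start in the direction of transcription (kb). At MARK1 and B3GAT1 the H3K27me3 peaks cover less of the H3K4me3 peak in V16D/H19, at CD1D and GFRA1 an H3K4me3 peak lies downstream of the outermost start under H3K27me3, and at BSX it lies upstream.

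The genes most like the 7 were found by the distance of their concentration differences to the median pair of the set (0.73 and -0.51), over 2 groups and 2 marks. They were CCND2-AS1 (0.75 and -0.51), GJB2 (0.72 and -0.55), WDR17 (0.72 and -0.6), ESRRB (0.74 and -0.41) and HCN4 (0.79 and -0.64), each the difference in H3K4me3 and then in H3K27me3 concentration. GJB2 encodes the gap junction protein connexin 26, ESRRB an orphan nuclear receptor and HCN4 the pacemaker channel of the heart. Sites named for CCND2-AS1, an RNA antisense to the cyclin gene CCND2, cannot be assigned to either strand. PLXNA2, on chromosome 1, had 0.44 and -0.82.

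Among 21 relatives and partners of the 7 genes, 2 had a listed H3K4me3 site, both higher in V16D/H19, and none a listed H3K27me3 site. Over all genes, 1628 had a listed H3K4me3 site and 792 a listed H3K27me3 site, beside 20033 annotated protein-coding genes. The named genes are not all protein-coding, and the counts among the relatives are too small to be set apart from these. Of all listed sites, 24.0% of those for H3K4me3 were higher and 91.5% of those for H3K27me3 were lower in V16D/H19. Both relatives belong to the GDNF pathway, which supplied the largest group of the list. RET, the signalling kinase that GFRA1 serves, had concentrations of 5.93 and 6.69, and GFRA2, the receptor for neurturin, 5.2 and 6.05. No H3K4me3 peak lay within 1 kb of the outermost GFRA2 start in any of the 6 libraries. Within 1 kb of the RET start the H3K4me3 folds were 12.56, 12.54 and 14.48 in V16D/CTL against 11.0, 22.77 and 20.18 in V16D/H19, which overlap. The H3K27me3 folds at RET were 4.42, 4.78 and 4.54 against 3.69, 3.62 and 3.44, which do not.

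Only the outermost annotated start of each relative was examined, within 1 kb. H3K4me3 was present there in all 6 libraries at 10 of the 21, including the widely expressed MARK2, MARK3, MARK4 and B3GAT3, and H3K27me3 at 4 (GFRA4, RET, NCAM1 and B3GAT2). B3GAT2, the other brain glucuronyltransferase of the HNK-1 epitope, carried both marks as B3GAT1 did, with H3K4me3 folds of 7.04, 5.27 and 7.24 against 10.2, 12.75 and 11.9 and H3K27me3 folds of 4.49, 4.5 and 5.08 against 3.57, 3.71 and 3.48. The groups were apart in both marks at B3GAT2, though it had no listed site and was picked out after its values were seen. Of the 10 relatives with H3K4me3 in all 6 libraries, B3GAT2 was the only 1 apart in the direction of the 7 genes. For H3K27me3 this held at 3 of 4. Over all sites found in at least 2 libraries the shares were 6.95% for H3K4me3 and 6.06% for H3K27me3. Those shares cover merged sites anywhere in the genome. No share was computed over gene starts with a peak in all 6 libraries, so the counts have no like background. The CD1 relatives CD1A, CD1B, CD1C and CD1E had no H3K4me3 peak at their outermost starts in any library.

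Of the 4 genes on chromosome 11, BSX, BARX2 and B3GAT1 lie near the end of the long arm, in a region whose listed sites span chr11:115688366-134418816. There, 6 of 12 listed H3K4me3 sites were higher in V16D/H19, compared with 9 of 76 (11.8%) on the rest of chromosome 11 and 24.3% on the other chromosomes. For H3K27me3, 13 of 15 listed sites there were lower (86.7%), compared with 38 of 40 on the rest of the chromosome and 91.4% elsewhere. The sites of BSX, BARX2 and B3GAT1 are themselves 3 of the 6 and 4 of the 13, so these counts are in part fixed by the choice of region.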

How the data were processed

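ChIP-seq of H3K4me3 and H3K27me3 was performed in 3 V16D/CTL and 3 V16D/H19 replicates with 1 input library per replicate, and 12 peak lists and 2 tables of differential sites were used. Per the labels, the authors used MACS2, DiffBind, ChIPseeker and the hg38 build, with no versions given in the sources used here. The deposited peak lists give each peak's ratio to input (fold over input) and its -log10 q, called by library. By the study's methods, H3K4me3 peaks were called as narrow and H3K27me3 peaks as broad. Folds and lengths are therefore not comparable across the 2 marks. The deposited tables give log2 mean concentrations of each group, which pool the replicates and have no error here. Their fold, p-value and FDR columns are the authors' own comparisons and were not used.

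With Python 3.11.15, pandas 2.3.3 and NumPy 2.4.6 (figures with matplotlib 3.10.9), peaks of a mark were merged across libraries into sites when they overlapped by at least 1 base. A gene's site was made up of all merged regions overlapping its listed site, and its fold was the highest among their peaks. The highest fold can therefore come from different peaks in different libraries. A library without a peak counted below every called value when groups were compared, and was left out of mean folds. Peak length was taken from 10 kb upstream to the gene end, with RefSeq coordinates (GRCh38.p14). All values are descriptions, without a test, and depth-based intervals were not made. The genes, relatives and letter strings were chosen with earlier results of these data known. How the 7 were picked from the 52 is not given by their rule. The text names the 7 genes, the 5 nearest by concentration differences, listed relatives and markers. PLXNA2, B3GAT2 and the counts of peak length were added after their values were seen. The scripts were tested on simulated lists. Alternatives were folds scaled by library medians, length-weighted folds, peaks with -log10 q of at least 5, lists of equal length, 2 kb upstream, overlap of at least 50% of the shorter peak, and leaving out each library.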

Additional observations from a re-analysis of the deposited data

How the results depend on the processing

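Restricting the lists to peaks with -log10 q of at least 5 kept 142 to 699 of 55060 to 72289 H3K27me3 peaks per library. With these few peaks, no gene of the 7 had a lower H3K27me3 fold in every V16D/H19 library (0, in place of 3), 2 had a smaller H3K27me3 length in every V16D/H19 library (in place of 5), and overlapping peaks of both marks were left at 2.0 genes per V16D/CTL and 0.0 per V16D/H19 library (6.67 in each group otherwise). A window from 2 kb upstream gave 5.67 and 6.0 genes with overlapping marks, 5 genes with greater H3K4me3 length (in place of 6) and 4 with smaller H3K27me3 length (in place of 5), and an overlap of at least 50% of the shorter peak 5.33 and 5.0. Leaving out each library in turn gave 1 to 2 genes with a higher H3K4me3 fold, 3 to 6 with a lower H3K27me3 fold, 6 to 7 with a greater H3K4me3 length and 5 to 6 with a smaller H3K27me3 length in every V16D/H19 library. With a library left out, these 4 kinds of count can only stay or rise, so they cannot show dependence on it. The shares over all sites and genes were not recomputed. The median log2 fold differences lay between 0.25 and 0.5 (H3K4me3) and between -0.32 and -0.18 (H3K27me3), with 6.5 to 7.0 genes with overlapping marks per library. Lists of equal length moved none of these counts. No paired analysis was made, because the results come from no test. The cause of the differences between libraries was not tested, and the depth of the libraries was not used.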
